A study of Saccharomyces cerevisiae with 22 samples.

Results

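The cytosolic ribosome small-subunit genes of budding yeast are the 56 genes RPS0A to RPS31, chosen by their systematic names among the 7126 entries of the deposited tables. All 56 had enough reads to be tested, among 6278 entries that did. They form 24 pairs of duplicated genes, each with an A and a B copy, and 8 genes with a single copy. Poly(A) RNA had been sequenced in 22 libraries of the laboratory strain W303, grown with 2% raffinose and given 2% galactose for 4 h. Of these, 5 libraries came from cells with an empty 2u (multicopy) plasmid, 6 from cells whose plasmid held PSD1 and 5 from cells whose plasmid held V5-PSD1, both driven by the GAL1-10 promoter. The last 6 came from PDR3-deleted cells with the PSD1 plasmid, and the design held no deletion group with an empty plasmid. PSD1 encodes a mitochondrial phosphatidylserine decarboxylase, and the study asked how yeast responds when import into mitochondria is stressed.

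The small subunit of the cytosolic ribosome binds the mRNA and decodes it, and is built from 1 rRNA and the proteins that these genes encode. Its head and body move against each other during translation, and assembly factors in the nucleolus and cytoplasm fit the proteins in a set order. In growing yeast the genes are among the most strongly transcribed, under the DNA-binding factor Rap1 with Fhl1, Ifh1 and Sfp1, and their mRNA levels fall in many kinds of stress.

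Duplicated copies share most of their coding sequence, which bears on how reads are split between them. The coding regions of the 24 pairs were 84.3% to 99.2% identical in the R64 reference (the sacCer3 sequence), with a median of 92.7%, and 9 pairs encoded identical proteins. The starts of the closest pair, RPS6, and of RPS26, whose 2 copies are compared further on, show how much a read can tell. Capitals mark the bases at which the copies differ.
RPS6A, coding bases 1 to 120: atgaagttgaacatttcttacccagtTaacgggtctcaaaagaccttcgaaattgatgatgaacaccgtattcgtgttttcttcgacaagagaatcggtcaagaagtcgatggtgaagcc
RPS6B, coding bases 1 to 120: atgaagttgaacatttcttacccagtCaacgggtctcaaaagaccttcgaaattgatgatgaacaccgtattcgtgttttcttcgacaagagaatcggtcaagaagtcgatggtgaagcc
RPS26A, coding bases 1 to 120: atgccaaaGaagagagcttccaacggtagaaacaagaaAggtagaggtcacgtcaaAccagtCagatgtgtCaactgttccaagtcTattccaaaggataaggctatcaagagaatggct
RPS26B, coding bases 1 to 120: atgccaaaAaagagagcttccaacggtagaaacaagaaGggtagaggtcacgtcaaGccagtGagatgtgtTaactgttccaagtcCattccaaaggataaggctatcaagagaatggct
Only 1 of these 120 bases differed in RPS6 (6 of 711 over the whole coding region), against 6 of 120 in RPS26 (28 of 360). Values of single copies of a pair are therefore uncertain where reads were shared, and each pair was also summed. The 8 single-copy genes have no such partner among the members, but their likeness to genes outside the members was not measured.

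The promoters held the letters of the Rap1 motif more often than other promoters did. The letters ACCCNNACA, searched on both strands in the 500 bases before each start codon, occurred in 18 of the 56 genes (32.1%) and in 5.45% of all 6019 promoters. The looser letters ACCCNNNCA, which include the former, occurred in 26 (46.4%) and in 13.1%. Of the 82 large-subunit genes, 36 held the former letters and 41 the looser ones, so the trait is not particular to the small subunit. The stretches below hold the matches of 4 genes, 2 of them single-copy genes and the other two a pair, with capitals for matches of the stricter letters ACCCNNACA only and every sequence read in the direction of the gene.
RPS2, 428 to 340 bases before the start codon, chrVII:277189-277277, plus strand: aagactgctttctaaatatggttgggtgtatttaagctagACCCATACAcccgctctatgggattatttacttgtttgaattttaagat
RPS13, 270 to 182 bases before the start codon, chrIV:579188-579276, plus strand: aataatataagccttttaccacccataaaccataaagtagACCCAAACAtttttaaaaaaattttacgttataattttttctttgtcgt
RPS16A, 438 to 259 bases before the start codon, chrXIII:551490-551669, plus strand: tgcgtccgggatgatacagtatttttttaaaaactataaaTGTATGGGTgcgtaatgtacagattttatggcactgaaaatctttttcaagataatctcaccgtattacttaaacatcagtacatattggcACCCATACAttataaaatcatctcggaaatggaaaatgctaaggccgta
RPS16B, 465 to 314 bases before the start codon, chrIV:308103-308254, minus strand: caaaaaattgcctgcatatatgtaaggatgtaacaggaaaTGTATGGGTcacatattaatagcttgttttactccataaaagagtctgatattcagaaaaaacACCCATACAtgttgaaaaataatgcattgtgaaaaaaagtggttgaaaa
Both copies of RPS16 held the stricter letters once on each strand. The letters GACGCA of Fhl1, searched in the same way, were found in 6 members (10.7%, against 10.9% of all promoters). The letters GCGATGAG (PAC), known from promoters of ribosome assembly genes, were in 0 members (against 4.82%). No match says only that these letters are absent from that window. Members also stood out by their introns: 36 of 56 (64.3%) had 1 in the coding region, against 5.46% of all 6021 protein-coding genes.

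Libraries had 8152941 to 20839061 counts in all. The check of the labels held: PDR3 had 1 to 3 counts in the deleted libraries and 776 to 3180 in the others, and PSD1 mRNA was at 8094 to 30492 CPM, the counts scaled to a common library size, with either PSD1 plasmid and at 240.2 to 603 CPM with the empty one. Library numbers start with 5 (12 libraries) or 6 (10 libraries), called series 5 and series 6 here, and both held all 4 groups. In series 6 the number of PSD1 replicate 6 lay apart from the others, which were close together. By the members' summed share of counts, 1 library with the deletion, replicate 3, was the lowest of all, and empty-vector replicate 5 was the highest. Neither was flagged for this share in the check for outlying libraries given at the end. The members' falls against the empty vector are given below without them too. The labels do not say whether replicates were separate cultures, so p-values measure the spread between these samples, which may be technical. All levels are relative to the other mRNAs of a library, and less RNA per cell and a smaller share of cells expressing a gene cannot be told apart.

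Cells with the PSD1 plasmid had a smaller share of their mRNA counts on small-subunit genes. The members took up 2.96%, 3.16%, 3.11%, 3.56% and 4.06% of counts in the 5 empty-vector libraries (mean 3.37 ± 0.446%, SD). The share was 1.88% to 2.61% in the 6 PSD1 libraries (median 2.17%, mean 2.23 ± 0.249%) and 1.55% to 2.53% in the 6 PDR3-deleted libraries (median 2.29%, mean 2.21 ± 0.349%). Every library of both groups lay below every empty-vector library. With the V5-PSD1 plasmid the shares were 3.12%, 3.59%, 3.42%, 3.26% and 3.34% (mean 3.35 ± 0.178%), inside the range of the empty vector. Without empty-vector replicate 5 the mean of the empty vector was 3.19%, and without deletion replicate 3 that of the deletion was 2.34%. In series 5 the empty vector averaged 3.07% and PSD1 2.23%, and in series 6 they averaged 3.81% and 2.23%. The large subunit moved alongside: the ratio of small- to large-subunit counts was 0.740 ± 0.00527 with the empty vector, 0.730 ± 0.0100 with PSD1, 0.727 ± 0.00732 with the deletion and 0.737 ± 0.00640 with V5-PSD1.

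**Figure D1:**
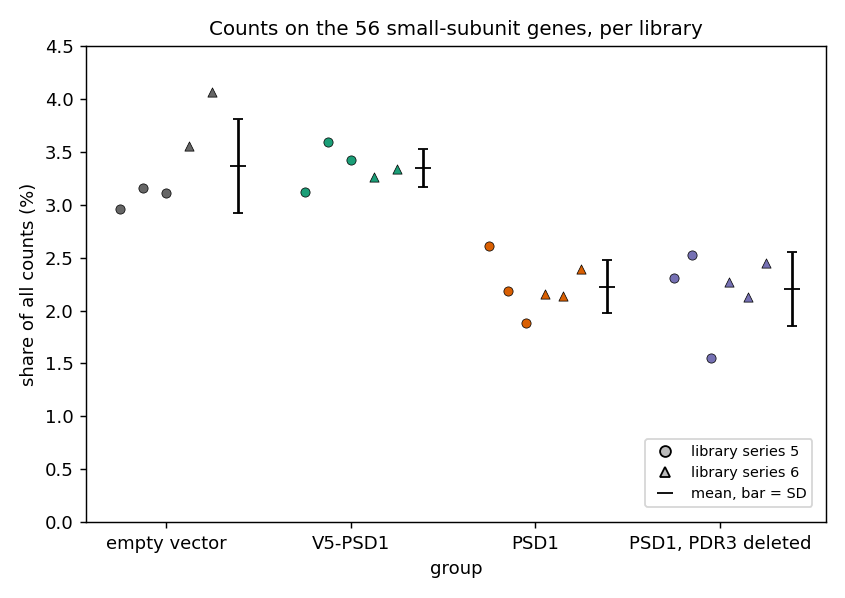
Share of all counts (%) held by the 56 small-subunit genes in each of the 22 libraries, by group; circles are library series 5, triangles series 6, and the bar beside each group is the mean ± SD. All 12 libraries with untagged PSD1 lie between 1.55% and 2.61%, below the 2.96% to 4.06% of the empty vector, while V5-PSD1 lies at 3.12% to 3.59%.

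Expressed per gene, 53 of the 56 members fell with the PSD1 plasmid, none rose and 3 did not pass (edgeR's quasi-likelihood test, Benjamini-Hochberg adjusted p below 0.05 over all genes tested). Of all 6278 genes, 26.9% fell and 29.7% rose. The members' median log2 fold change was -0.55, which is 1.46 times lower, against 0.02 over all genes. Single members ran from -0.85 to -0.30, with an interquartile range from -0.60 to -0.49. The SD of the fold changes across members was 0.107, and the median SE of a single member's fold change was 0.108. An SE also holds differences between libraries that members share, so these values do not show whether members differ. The groups did not overlap for 30 members, each PSD1 library lying below every empty-vector library, as for 15.7% of all genes. Without empty-vector replicate 5, 48 members fell with a median of -0.46 (24.7% of all genes fell), and without deletion replicate 3, which enters the shared estimate of spread, 55 fell (27.9% of all genes). Within library series 5 alone 25 fell (median -0.45), where 15.9% of all genes did, and within series 6 alone 54 (median -0.72), where 22.3% did.

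**Figure D2:**
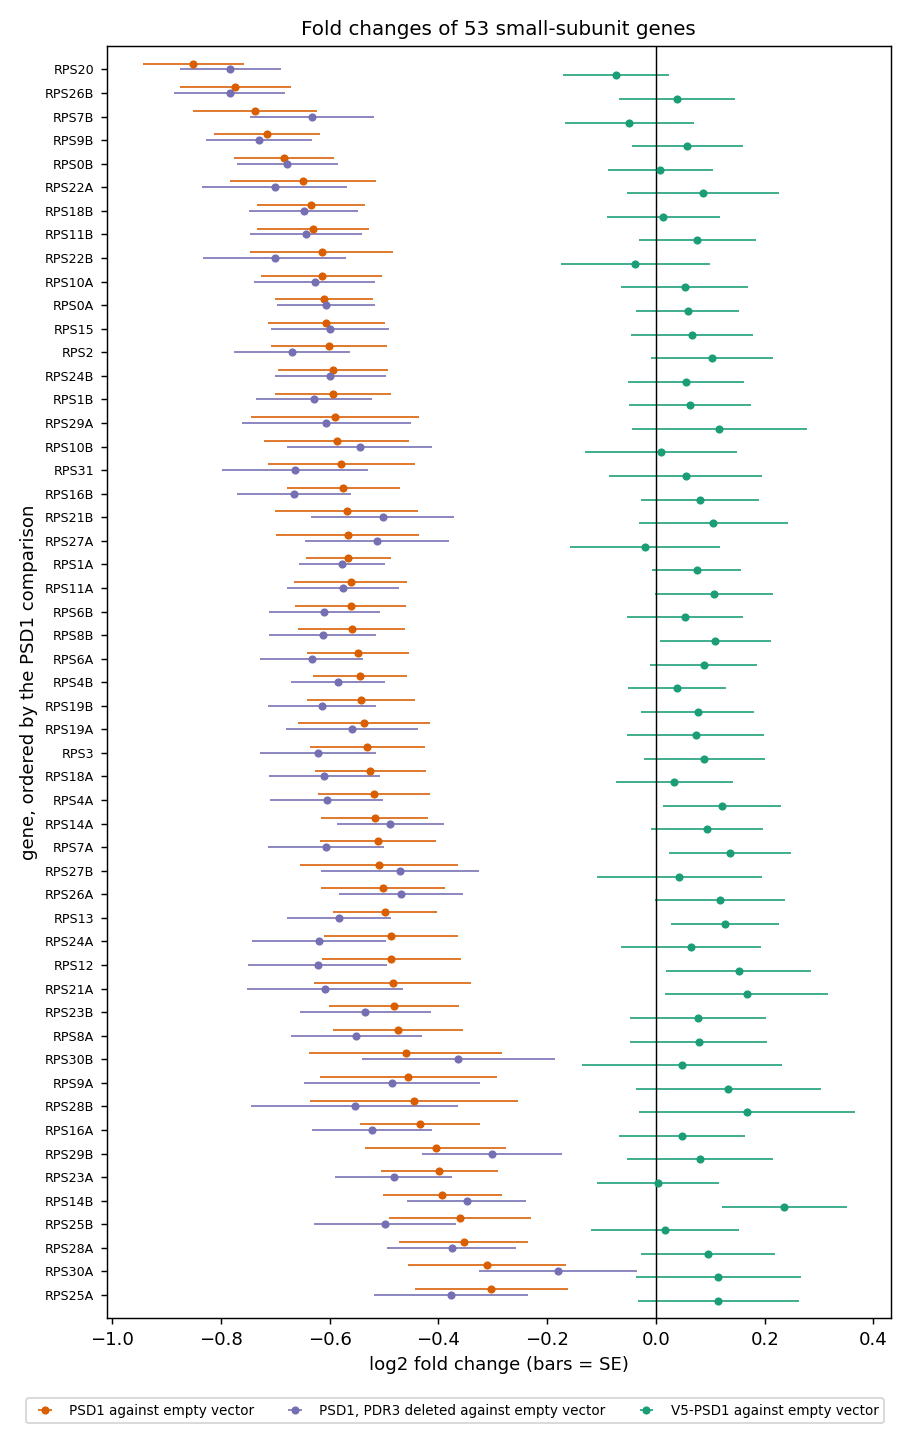
log2 fold change (x axis, bars are SE) of 53 of the 56 genes (y axis) against the empty vector, for PSD1 (orange), PSD1 in PDR3-deleted cells (purple) and V5-PSD1 (green). The orange and purple points all lie below 0, from -0.85 to -0.18, and the green points lie between -0.07 and 0.24.

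The 8 single-copy genes have no A or B partner among the members, and all 8 fell, with a median log2 fold change of -0.59. RPS20 (YHL015W, chromosome VIII, 75412 to 75777), a protein of the head, fell most of all members. It was at 814, 781, 826, 779.9 and 969.7 CPM in the empty-vector libraries, and at 434 to 547 (median 444) CPM with PSD1. Even the highest PSD1 library was thus well below the lowest control (log2 fold change -0.85 ± 0.09 SE, adjusted p = 4.28e-07 by edgeR). RPS15 (YOL040C, chromosome XV, 253149 to 253577), a head protein near the decoding centre, was the most abundant member per length, at 4727 ± 455 FPKM with the empty vector and 3051 ± 415 FPKM with PSD1. In counts it was at 1639.9, 1586, 1693, 1874 and 1989 CPM against 1046 to 1411 (median 1117) CPM, with no overlap (-0.61 ± 0.11).

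RPS31 (YLR167W, chromosome XII, 498947 to 499405), which is made as a fusion with ubiquitin, was at 1473, 1586, 1524, 1912 and 2233 CPM with the empty vector and 927 to 1585 (median 1123) CPM with PSD1. It fell (-0.58 ± 0.13), but PSD1 replicate 1, at the top of that range, reached the control levels. RPS2 (YGL123W, chromosome VII, 277617 to 278381) and RPS3 (YNL178W, chromosome XIV, 302680 to 303402), which line the entry of the mRNA channel, fell by 0.60 and 0.53 on the log2 scale, each with 5 of 6 PSD1 libraries below all controls. RPS2 was at 1113, 1211, 1054, 1332 and 1524 CPM with the empty vector and 688 to 1083 (median 784) CPM with PSD1. RPS13 (YDR064W, chromosome IV, 579458 to 580452), a body protein and the sole single-copy member with an intron, was at 474, 532, 485, 613 and 718 CPM against 371 to 451 (median 389.6) CPM, without overlap (-0.50 ± 0.10). RPS12 (YOR369C, chromosome XV, 1028194 to 1028625) of the head overlapped most of the 8: it was at 569.6, 619, 567, 780.1 and 866 CPM and 414 to 617 (median 452) CPM (-0.49 ± 0.13, adjusted p = 0.00303), with 4 of 6 PSD1 libraries below all controls.

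**Figure D3:**
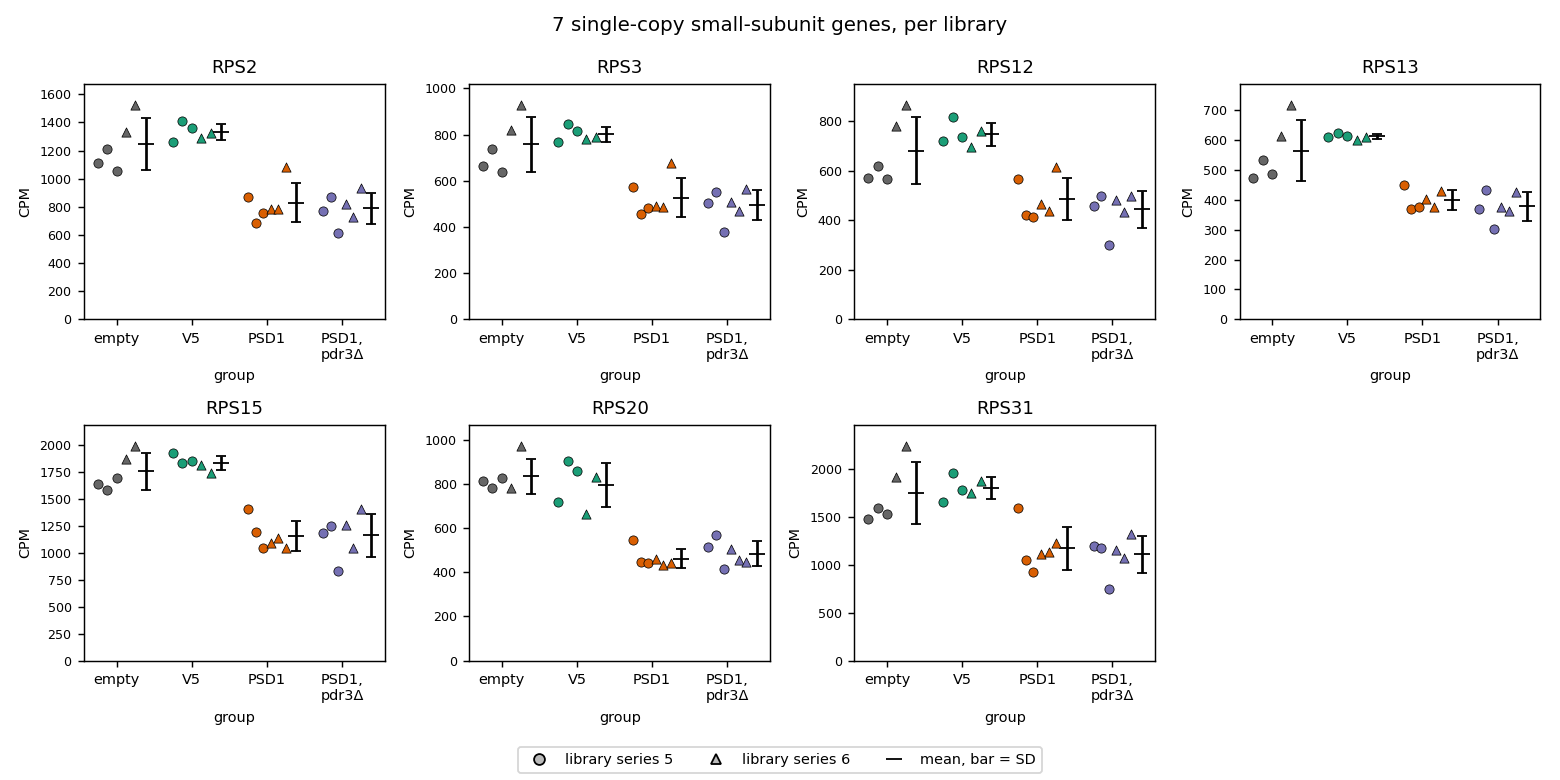
Level in CPM of 7 single-copy genes in each library by group (pdr3Δ marks the PDR3 deletion); circles are library series 5, triangles series 6, bars are mean ± SD, and each axis starts at 0. In RPS20 the 6 PSD1 libraries, at 434 to 547 CPM, lie below the empty-vector libraries, at 779.9 to 969.7 CPM, and in RPS12 the groups overlap.

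Among duplicated genes, B copies made up the largest falls. RPS26B (YER131W, chromosome V, 423952 to 424311), which encodes a protein at the mRNA exit, was at 756, 743, 793, 841 and 1001 CPM with the empty vector and 457 to 568 (median 468) CPM with PSD1 (-0.77 ± 0.10). RPS7B (YNL096C, chromosome XIV, 443398 to 444315), of the body, was at 309, 333, 342, 359 and 393 CPM and 175 to 225 (median 212) CPM (-0.74 ± 0.11). Neither gene had a PSD1 library within the control range. RPS9B (YBR189W, chromosome II, 604508 to 605508), a body protein that binds early to the rRNA, was at 1000.3, 955, 1061, 1174 and 1303 CPM and 599 to 771 (median 664) CPM (-0.72 ± 0.10). RPS0B (YLR048W, chromosome XII, 242232 to 243349), on the solvent side of the body, was at 1128, 1174, 1148, 1270.0 and 1401 CPM and 682 to 844 (median 759) CPM (-0.68 ± 0.09). Here too the groups were apart. Over all pairs, 22 of 24 A copies fell (median -0.51) and 23 of 24 B copies (median -0.57), a difference that was not tested.

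The 3 members that did not pass were low in most PSD1 libraries and high in 1. RPS25A, a head protein, was at 636, 678, 636, 778 and 852 CPM with the empty vector and 467 to 812 (median 529) CPM with PSD1 (-0.30 ± 0.14, adjusted p = 0.0724 by edgeR). RPS30A, of the body, was at 259.8, 296, 296, 300.4 and 389 CPM and 208 to 330.0 (median 239) CPM (-0.31 ± 0.14, adjusted p = 0.073). In both, PSD1 replicate 1 gave the highest value and the other 5 PSD1 libraries were at or below all controls. RPS28B, a small head protein whose product is known to regulate its own mRNA, was the least abundant member, at 16.9, 18.7, 16.6, 18.2 and 27.2 CPM and 7.53 to 24.5 (median 13.8) CPM (-0.44 ± 0.19, adjusted p = 0.0539). Its PSD1 replicate 6 was within the control range. The lower bounds of their 95% intervals reached -0.60, -0.61 and -0.84. A further 5 members lost the call when 1 library was left out: RPS9A, RPS28A and RPS29B without empty-vector replicate 5 (adjusted p = 0.0750, 0.0900 and 0.0698), RPS25B without that library or PSD1 replicate 3, 4 or 5 (highest adjusted p = 0.101), and RPS30B without empty-vector replicate 2 or 5 or PSD1 replicate 2, 3, 4 or 5 (highest adjusted p = 0.237).

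The fall was spread over the structure of the subunit. Of 22 members in the head 20 fell (median -0.54), and of 34 in the body 33 (median -0.55). With an intron 35 of 36 fell (median -0.54) and without one 18 of 20 (median -0.56). Members whose promoters held the looser Rap1 letters had a median of -0.55 (26 of 26 fell), and the other 30 a median of -0.54 (27 fell). The 10 members under 100 codons had a median of -0.47, with 8 that fell, and their median SE of 0.144 was above the 0.106 of longer members. These splits are descriptions and were not tested.

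**Figure D4:**
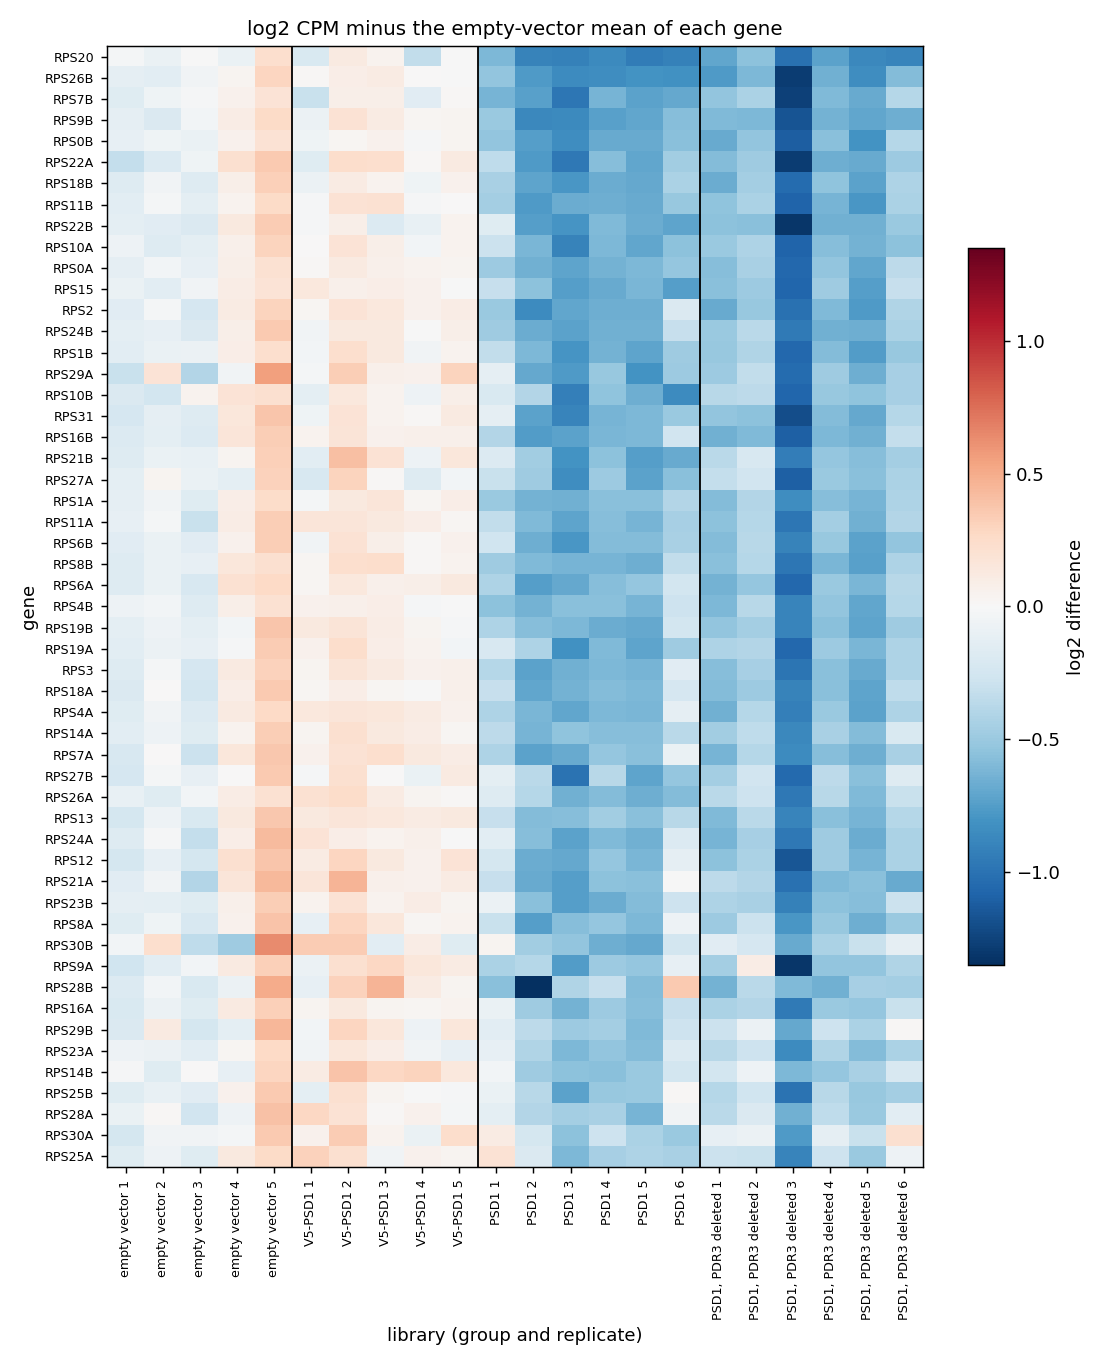
Difference of each gene's log2 CPM in each library (columns, by group) from that gene's mean over the 5 empty-vector libraries, for 53 of the 56 genes (rows, ordered by the PSD1 fold change); blue is lower and red higher. Nearly all cells of the PSD1 and PDR3-deleted libraries are blue, darkest in deletion replicate 3, while V5-PSD1 libraries are pale like the controls.

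The V5-PSD1 plasmid carries a tagged form of the protein under the same promoter. No member passed against the empty vector, in either direction, and none had an unadjusted p below 0.05 in edgeR or a call by DESeq2 or limma. Over all genes, 0.494% fell and 2.53% rose. The members' median was 0.08, and they ran from -0.07 to 0.24, with 95% intervals within -0.34 and 0.58. RPS14B, whose splicing the Rps14 protein is known to repress, had the largest difference, at 109, 99.0, 111, 103 and 136 CPM with the empty vector and 119.7, 145, 134, 136 and 123 CPM with V5-PSD1 (0.24 ± 0.11, adjusted p = 0.294), and these values overlapped. RPS28B (0.17 ± 0.20) and RPS21A (0.17 ± 0.15) came next. RPS20, at 718, 903, 858, 662 and 829 CPM, had 2 libraries below all controls and 3 within their range (-0.07 ± 0.10). The median was 0.20 in series 5 and -0.16 in series 6. PSD1 mRNA was higher with V5-PSD1 (24678 ± 4199 CPM) than with PSD1 (15252 ± 6041 CPM), and the level of the protein was not measured.

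Set directly against V5-PSD1, all 56 members were lower with PSD1, where 20.1% of all genes fell and 20.3% rose. The median was -0.63, and members ran from -0.81 to -0.38. The groups did not overlap for 49 members, as for 10.1% of all genes. The largest falls were those of RPS26B (-0.81 ± 0.10), RPS20 (-0.78 ± 0.09), RPS9B (-0.77 ± 0.10), RPS22A (-0.74 ± 0.13) and RPS11B (-0.71 ± 0.10). RPS26B was at 829, 876, 885, 827 and 821 CPM with V5-PSD1, above each of its PSD1 values. Within series 5 alone 37 members fell, where 4.56% of all genes did, and within series 6 alone 48, where 15.4% did.

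The members were also lower in PDR3-deleted cells with the PSD1 plasmid (PDR3 encodes a transcription factor of drug resistance genes). Against the empty vector 53 fell and 3 did not pass, where 21.4% of all genes fell and 26.1% rose, and the groups did not overlap for 46 members (13.1% of all genes). The median was -0.60, and -0.53 without deletion replicate 3, when 52 fell (21% of all genes). Without empty-vector replicate 5 it was -0.51, and 47 fell, where 1215 of all 6297 genes did. Within series 5 alone 20 fell, where 4.47% of all genes did, and within series 6 alone 53, where 20% did. RPS26B was at 338 to 547 (median 504) CPM (-0.78 ± 0.10) and RPS20 at 414 to 568 (median 479.5) CPM (-0.78 ± 0.09), followed by RPS9B (-0.73 ± 0.10), RPS22B (-0.70 ± 0.13) and RPS22A (-0.70 ± 0.13). RPS22B has the snoRNA gene SNR44 within its bounds on the same strand, so reads from that stretch cannot be told apart from that RNA without a feature rule. The members that did not pass were RPS29B (-0.30 ± 0.13), RPS30A (-0.18 ± 0.15) and RPS30B (-0.36 ± 0.18). This comparison shares its controls with that of PSD1, so the likeness of the 2 sets of values is not independent.

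Set against PSD1 itself, the deletion gave no call among the members, and none had an unadjusted p below 0.05 in edgeR, nor a call by DESeq2 or limma. Over all genes 0.398% fell and 0.0159% rose. The median was -0.02, the range -0.14 to 0.13, and the 95% intervals of all members stayed within -0.49 and 0.45. The largest differences were those of RPS25B (-0.14 ± 0.13), RPS12 (-0.14 ± 0.12) and RPS24A (-0.13 ± 0.12). For RPS20 the interval ran from -0.12 to 0.25.

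Summing each pair removes the question of which copy a shared read belongs to, for those shared reads that were counted. Whether all of them were counted is not stated. Of the 24 sums 22 fell with PSD1, as 26.8% of the 6254 entries of that table did, with a median of -0.54 and a range from -0.67 (RPS9) to -0.32 (RPS25). RPS25 (-0.32 ± 0.13, adjusted p = 0.0516) and RPS30 (-0.33 ± 0.14, adjusted p = 0.0526) did not pass. With V5-PSD1 no sum passed, where 0.496% of entries fell. In the deletion 23 sums fell against the empty vector (21.3% of entries) and 0 against PSD1 (0.4%), and with PSD1 all 24 were below V5-PSD1 (20%).

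The split within a pair was measured as the share of the A copy, a ratio within a library that does not depend on normalisation. An exact two-sided permutation test of the log2 ratio was run for each of the 24 pairs, and the smallest p it can give for PSD1 against the empty vector is 0.00216. In the exact permutation test 5 of the 24 pairs had p below 0.05, and in 3 of these the groups did not overlap: RPS0, RPS9 and RPS26. RPS18 also had a low value (exact p = 0.0152), with overlap. No adjustment over the pairs was made.

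RPS26 and RPS9 had the largest differences. In RPS26 the A copy made up 59.4, 58.8, 59.3, 60.2 and 57.7% of the pair's counts with the empty vector, and 61.7 to 65.2% with PSD1. No library overlapped, and the mean went from 59.1 ± 0.918% to 63.4 ± 1.40% (difference of 0.26 in the log2 ratio, exact p = 0.00216, and 0.31 and 0.22 in series 5 and 6). In the deletion it was 63.1 to 65.6%, again above every control (0.31, exact p = 0.00216). With V5-PSD1 it was 62.3, 61.6, 59.1, 59.6 and 59.4%, which overlapped the controls (0.08, exact p = 0.159) and differed from PSD1 (0.18, exact p = 0.00866). Both copies fell, RPS26A by 0.50 and RPS26B by 0.77 on the log2 scale, and the assembly factor Tsr2, which escorts their protein, had a lower mRNA (-0.54 ± 0.09).

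In RPS9 the A copy, the minor one, was at 17.2, 19.2, 18.7, 18.8 and 19.3% with the empty vector and 19.4 to 24.2% with PSD1 (0.26, exact p = 0.0108, at most 0.0333 when a library was left out). In the deletion it spread from 17.2% to 27.1% (0.20, exact p = 0.139). RPS7 (0.23, exact p = 0.0736), RPS29 (-0.18, exact p = 0.0541) and RPS16 (0.13, exact p = 0.0801) had the next largest differences with PSD1 and overlapped the controls. RPS29 went the other way, from 45.1 ± 2.06% to 42.1 ± 2.31%, and in the deletion, at 40.3 ± 1.77%, it lay below all controls (-0.29, exact p = 0.00216). RPS0, at a difference of only 0.07, was without overlap (exact p = 0.00216). With V5-PSD1 the largest differences were those of RPS7 (0.20, exact p = 0.0635), RPS14 (-0.14, exact p = 0.0873) and RPS22 (0.12, exact p = 0.302). Named for their p after the values were seen, RPS4 (0.08, exact p = 0.0238) and RPS0 (0.05, exact p = 0.0476) were the 2 of 24 pairs below 0.05 there, both with overlap. For RPS0 the difference between PSD1 and V5-PSD1 was 0.02 (exact p = 0.327).

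**Figure D5:**
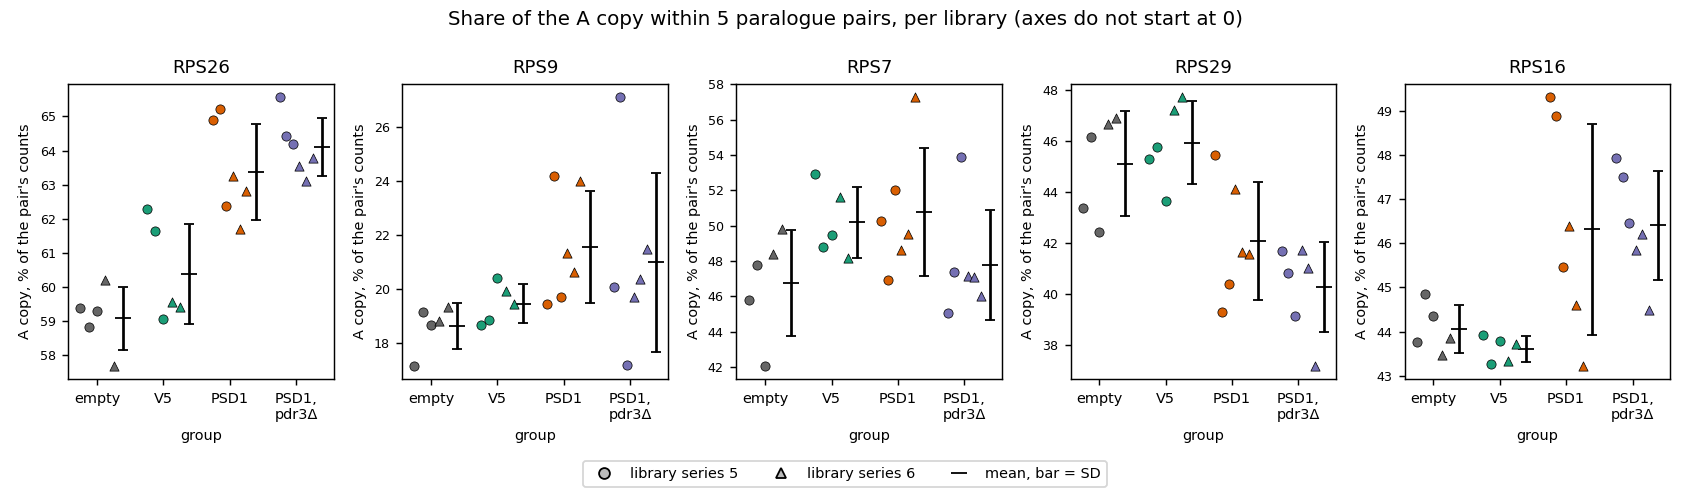
Share of the A copy in the summed counts of 5 duplicated pairs (%), per library and group (pdr3Δ marks the PDR3 deletion); circles are library series 5, triangles series 6, bars are mean ± SD, and the axes do not start at 0. In RPS26 all PSD1 and PDR3-deleted libraries, at 61.7% to 65.6%, lie above the empty-vector range of 57.7% to 60.2%, and in RPS29 they lie lower on average.

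Levels per length differed widely between members. By FPKM, which scales by gene length and depth, in the empty vector, RPS15 led, and among the highest were RPS31 (4353 ± 795), RPS26A (3924 ± 410.2) and RPS26B (2721 ± 342). RPS15 and RPS31 differed by less than either SD. RPS30B (349 ± 111), RPS14B (310.3 ± 39.8) and RPS28B (129 ± 28.1) were the least abundant. All 56 were above the median gene, at 58.4 FPKM, and the median member was at 1171 FPKM.

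Genes that build, regulate or use the small subunit were read from 4 further lists. Of all 6278 genes, 26.9% fell with PSD1 and 29.7% rose. Of 7 proteins that associate with it or chaperone its parts, 4 fell with PSD1, none rose and 3 did not pass: the assembly factor TSR1 (-0.66 ± 0.09), ASC1 (-0.60 ± 0.11), the RACK1 homologue on its head, TSR2 and STM1 (-0.48 ± 0.08), which occupies the mRNA channel of idle ribosomes. Of 18 assembly factors 14 fell, none rose and 4 did not pass. UTP22 (-0.95 ± 0.11) and NOP14 (-0.87 ± 0.11) of the early particle fell most, then RRP12 (-0.79 ± 0.12), an export factor, and the kinase RIO1 (-0.69 ± 0.10). Of 11 initiation factors that bind the subunit, 9 fell, none rose and 2 did not pass, led by the eIF3 subunits NIP1 (-0.76 ± 0.12) and RPG1 (-0.59 ± 0.07), the recycling ATPase RLI1 (-0.67 ± 0.09) and PRT1 (-0.50 ± 0.07).

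Of 17 regulators of ribosomal protein gene transcription 10 fell, 2 rose and 5 did not pass, where 26.9% of all genes fell and 29.7% rose. The co-repressor CRF1 rose (0.97 ± 0.14), from 19.6 to 38.2 CPM on average. CKB1, a subunit of casein kinase, had 0.19 ± 0.08, adjusted p = 0.0440 by edgeR, and with any 1 of 13 libraries left out a single regulator rose. TOD6, a repressor of ribosome assembly genes, had the largest fall (-0.79 ± 0.12), and the activators IFH1 (-0.54 ± 0.14), RAP1 (-0.45 ± 0.07) and FHL1 (-0.36 ± 0.07) fell as well. The medians of the lists were -0.48 for associated proteins, -0.45 for assembly, -0.33 for initiation and -0.21 for regulators, against -0.55 for the members and 0.02 for all genes. Of the 82 large-subunit genes 74 fell and 1 rose, with a median of -0.54. With V5-PSD1 a single gene of the 4 lists passed, RIO1 (-0.37 ± 0.10, adjusted p = 0.0493 by edgeR), where 0.494% of all genes fell and 2.53% rose.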

How the data were processed

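Poly(A) RNA of 22 libraries was measured, 5 with the empty vector, 6 with PSD1, 6 with PSD1 and a PDR3 deletion and 5 with V5-PSD1, grouped by the submitters' labels. The authors' deposited expected counts are whole numbers per gene, taken as rounded estimates. Their deposited log2 values are log2 of FPKM plus a pseudocount of 1, as the headers and the decimals show. Tools named in the submitters' processing notes are RSEM 1.3.0, STAR 2.5.3a and SAMtools 1.3, with the build sacCer3. For the annotation, the strand setting and reads that match both copies of a pair, nothing is stated in the labels or headers. Columns were joined to samples by library number. For 2 count columns the label gave another replicate number.

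Entries with enough counts (edgeR's filterByExpr by group) gave 6278 of 7126. The 1078 entries that matched no locus of the reference held 1.68% to 3.05% of a library's counts. edgeR 4.0.16 in R 4.3.3 fitted 1 quasi-likelihood model with group and library series (first digit of the library number, 5 or 6), TMM normalisation and Benjamini-Hochberg adjustment over all genes at 0.05. All adjusted p-values come from it unless another tool is named. CPM use TMM library sizes. The scripts were tested on simulated data. Pair sums replaced both rows in the table. Alternatives used DESeq2 1.42.0, limma 3.58.1, other scalings and filters, 1 series, and each library left out. Sequences came from the R64 RefSeq genome through Python 3.11.15 and Biopython 1.88.

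The members, lists and tests were chosen with earlier results of these data known. Named were the single-copy members, the 5 largest falls and rises that passed per comparison (3 values where none passed), members that did not pass with PSD1, the 5 and 3 pairs with the largest change in split, 4 genes per list, and the 5 most and 3 least abundant members. Some items that this rule names are not reported here, but all members enter the counts.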

Additional observations from a re-analysis of the deposited data

Results flagged for a closer look

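In 128 groups of 5 or 6 values, 12 had a library far from the others by Dixon's ratio at the 95% level, where chance flags about 1 in 20. PDR3-deletion replicate 3 was low in RPS12 (300.3 CPM, the others at 432 to 499), RPS9B (486 CPM, the others at 673 to 722), RPS22A (183 CPM, the others at 278 to 320.1) and RPS22B (90.2 CPM, the others at 143 to 158). It was high in the A-copy share of RPS7 (53.9%, the others at 45.0% to 47.4%). PSD1 replicate 1 was high in RPS20 (547 CPM, the others at 434 to 459), RPS26B (568 CPM, the others at 457 to 484) and RPS22B (199 CPM, the others at 128 to 148). PSD1 replicate 3 was low in RPS7B (175 CPM, the others at 209 to 225). Empty-vector replicate 5 was high in RPS20 (969.7 CPM, the others at 779.9 to 826) and RPS28B (27.2 CPM, the others at 16.6 to 18.7). V5-PSD1 replicate 2 was high in RPS21A (101 CPM, the others at 76.3 to 81.9). No cause was tested.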

How the results depend on the processing

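In PSD1 against the empty vector no named member changed direction. Of 851 alternative values for 23 named members in that comparison, 803 gave the same call, 23 lost it, 25 gained it and 0 reversed. These include fits that left out a library of another group, and the other comparisons were not counted in this way. Over the 15 other settings the members' median with PSD1 ran from -0.72 to -0.45. With series 5 alone 25 members, 9 pair sums, 33 large-subunit genes, 7 assembly factors and 5 initiation factors fell with PSD1, 20 members fell in the deletion against the empty vector and 37 in PSD1 against V5-PSD1. Of all genes 15.9%, 4.47% and 4.56% fell in these comparisons, in that order. In series 6 alone the V5-PSD1 median was -0.16. The cause of these differences between series was not tested. Regulators that rose numbered 1 in place of 2 with DESeq2, RLE size factors, total counts, TMM without ribosomal protein genes, PSD1 left out of library sizes, reference loci, the 2 groups alone, library sets as a block, both limma fits, and either series alone. As shares of summed FPKM the members held 7.65% (empty vector), 4.98% (PSD1), 5.05% (deletion) and 7.48% (V5-PSD1).

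With 1 library left out, 48 to 55 members and 21 to 24 pair sums fell with PSD1, 47 to 55 members in the deletion and 52 to 56 against V5-PSD1. Associated proteins that rose numbered 0 to 1, regulators that rose 1 to 2, and pairs whose split differed with V5-PSD1 0 to 3, where 2 did with all libraries. Correlations of the deviations of same-numbered libraries ran from -0.25 to 0.12 for PSD1 and the empty vector, -0.12 to 0.56 for V5-PSD1 and the empty vector, -0.23 to 0.14 for the deletion and the empty vector, -0.09 to 0.57 for the deletion and PSD1, and -0.19 to 0.43 for PSD1 and V5-PSD1. A number's libraries thus deviated together in some pairs, but in each comparison at least 1 pair was below 0.1, and the numbers were not taken to pair the samples. As a hint from the data, 4 of 6 deletion libraries correlated best with the PSD1 library of their own number, 3 of 5 PSD1 libraries with the V5-PSD1 one, and 0 or 1 of 5 libraries in comparisons with the empty vector. Replicate numbers do not always follow the order of library numbers, by which libraries were also put into sets. Within sets the correlations with the empty vector were -0.34 to 0.27 for PSD1, -0.22 to 0.33 for the deletion and -0.12 to 0.56 for V5-PSD1. They were -0.29 to 0.57 for the deletion and PSD1, and -0.31 to 0.24 for PSD1 and V5-PSD1. With the replicate number as a block 56 members fell with PSD1 (median -0.58), 55 in the deletion and 0 with V5-PSD1. In that fit 1805, 1477 and 55 of all 6278 genes fell, against 1689, 1344 and 31 in the main fit.

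Short members, with fewer counts, had the widest errors, and the split of reads between copies limits single values of duplicated genes.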
